A study of Homo sapiens with 4 samples.

Results

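The genes described here are the numbered zinc finger (ZNF) genes that lie outside chromosome 19, followed in human K562 cells, a chronic myeloid leukaemia line. They were chosen by symbol (ZNF, a number and at most 1 letter), by GENCODE type (protein-coding), by location and by read level, with at least 100 reads summed over the 4 libraries. Of 263 such genes outside chromosome 19, 262 were in the count table and 200 reached the minimum, out of 60279 genes in the table. Another 62 fell below it, 16 of them without a read. The read level was thus selected on and is given as a description only.

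Untreated K562 cells were incubated with 1 mM 4-thiouridine, a uridine analogue that enters newly made RNA, for 5 or 15 min. The labelled RNA was purified and sequenced (transient transcriptome sequencing, TT-seq), with 2 libraries for each labelling time. Before fragmentation 15 µg of RNA from fly S2 cells was added to 150 µg of human RNA as a spike-in. All libraries share the line, the dose and the absence of any other treatment, and K562 is a single established line. Separate cultures are not named for the 2 libraries of a time, so p-values below measure the spread between these libraries.

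Most ZNF genes encode proteins with tandem C2H2 fingers, short loops held by a zinc ion that read DNA base by base. Many carry a KRAB domain, which recruits TRIM28 and through it the H3K9 methyltransferase SETDB1, HP1 proteins and the NuRD complex to silence chromatin, often at transposable elements. Others carry a SCAN domain, through which they pair, or act in RNA binding, ubiquitin or SUMO transfer and spindle assembly. Chromosome 19 holds the densest arrays of the family, and smaller clusters lie on several other chromosomes.

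The libraries held 4339981 to 5051370 human reads and 308978 to 897018 fly reads. The 200 members took 50846 to 69137 reads per library. K562 markers were present at both times, among them TFRC, the transferrin receptor, with 5441 to 6663 reads per library and the erythroid factor GATA1 with 486 to 693. The T cell gene CD3E had 1 or 2 reads per library. Mitochondrial genes took 5.93% and 6.94% of human reads at 15 min and 2.07% and 2.59% at 5 min; their part in the results below was not tested beyond the fit without them. At the edge of the rule, ZNF205 (100 reads), ZNF747 (101) and ZNF385D (106) lay just inside, and ZNF774 (97), ZNF608 (96) and ZNF25 (92) just outside.

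Promoter stretches are shown for 4 members that recur below: ZNF646 with its divergent neighbour ZNF668, which share their upstream region and gained share together; ZNF598, with the largest loss of share; ZNF207, with the most reads; and ZNF263, a SCAN member with repeated CCAAT letters. These 4 were chosen after their values were seen. Each runs 5′ to 3′ on the gene's strand and ends at the base before the RefSeq start (GRCh38.p14). Stretches stop where a neighbouring coding gene begins. Capitals mark the searched letters, on either strand.
ZNF646, chr16:31074321-31074421, plus strand: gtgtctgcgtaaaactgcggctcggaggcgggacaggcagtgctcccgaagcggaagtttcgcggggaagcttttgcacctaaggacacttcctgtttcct
ZNF598, chr16:2009822-2009925, minus strand: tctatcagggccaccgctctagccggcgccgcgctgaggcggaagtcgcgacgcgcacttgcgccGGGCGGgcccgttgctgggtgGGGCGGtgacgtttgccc
ZNF207, chr17:32350024-32350156, plus strand: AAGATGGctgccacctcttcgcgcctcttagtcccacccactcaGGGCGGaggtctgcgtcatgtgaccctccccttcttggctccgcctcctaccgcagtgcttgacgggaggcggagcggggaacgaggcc
ZNF263, chr16:3283241-3283490, plus strand: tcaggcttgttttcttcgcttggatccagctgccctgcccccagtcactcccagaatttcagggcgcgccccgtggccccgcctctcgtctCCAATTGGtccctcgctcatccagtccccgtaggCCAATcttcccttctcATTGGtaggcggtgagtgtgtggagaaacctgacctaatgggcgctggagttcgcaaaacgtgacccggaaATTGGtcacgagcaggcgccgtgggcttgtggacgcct

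In these stretches the capitals of ZNF263 are 5 CCAAT matches, at 159, 156, 125, 109 and 38 bases before the start. Those of ZNF598 are GC boxes at 39 and 18 bases before the start, and ZNF207 has a GC box at 89 and the YY1 core letters at 133. The stretch between ZNF646 and ZNF668 held none of the searched letters. RefSeq windows from 250 bases before to 50 after the start were matched for 167 members. These wider windows of ZNF646 and ZNF668 each held a GC box and an ETS core. The ETS core CCGGAAG was in 40.7% of the 167 member windows and 47.3% of 148 windows of chromosome 19 ZNF genes. It was in 20.6% of 9195 windows of tested protein-coding genes and 10.3% of all 35116 windows. CCAAT was in 44.9% of member windows, 56.1% of those of chromosome 19 ZNF genes and 37.1% of those of tested protein-coding genes. The GC box GGGCGG was in 64.7% of member windows against 70.6% of protein-coding ones, and the TATA letters TATAAA in 4.19% against 5.43%. Among members higher in share the ETS core was in 46.4% of 56 windows, and among those lower in 45.5% of 11 windows. CCAAT was in 53.6% and 36.4% of the same windows, a difference that was not tested. The remaining searches (AAGATGG of YY1, ACTACAA of ZNF143, GCATGCGC of NRF1 and the E-box CACGTG) each matched under 10% of member windows. Matching letters are a description and not bound sites, and the list of motifs was chosen with results of these data known.

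Scaled to the spike-in, labelled RNA of all 200 members rose between 5 and 15 min (edgeR quasi-likelihood test, adjusted p under 0.05), where 98.4% of the 17322 tested genes rose. The median fold was 3.58 for the members, 3.83 for the 163 ZNF genes of chromosome 19, 2.96 for protein-coding genes and 3.20 for all tested genes, beside a 3-fold longer label. The fold was above 3 for 156 of 200 members and for 58.1% of all tested genes. Summed over the members, reads per 1000 fly reads were 217 and 210 at 15 min and 56.7 and 66.9 at 5 min. The times did not overlap, and the means of 213 ± 5.14 and 61.8 ± 7.21 (SD, n = 2) differed 3.45-fold (two-sided exact permutation test, p = 0.333, the smallest that 2 against 2 libraries allow).

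The members also took a larger part of the human reads at 15 min. Their share was 1.37% in both 15 min libraries, 1.17% and 1.15% at 5 min, so the times did not overlap (exact permutation p = 0.333, the smallest possible). For every read of a chromosome 19 ZNF gene there were 2.01 and 2.03 member reads at 15 min and 2.18 and 2.23 at 5 min. The ratio was therefore lower at 15 min in both libraries, by a factor of 0.917 (exact permutation p = 0.333).

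The most read member was ZNF207, which encodes a microtubule-binding partner of the checkpoint protein BUB3. It had 11.3 and 9.83 reads per 1000 fly reads at 15 min and 3.28 and 3.53 at 5 min, a 3.10-fold rise. ZNF451, a SUMO ligase, had 7.69 and 7.29 at 15 min and 1.96 and 2.25 at 5 min, a 3.56-fold rise. ZNF24, a SCAN domain factor, had 5.70 and 6.05 against 1.53 and 1.91, a 3.41-fold rise. In each the 15 min libraries lay far above the 5 min ones. ZNF706, ZNF217 (an oncogene product found with co-repressors), ZNF638 (a nucleic acid-binding protein that silences unintegrated retroviral DNA), ZNF644 (a partner of the G9a and GLP methyltransferases) and ZNF800 complete the 8 most read, with rises of 2.94- to 3.45-fold. These 8 held 21.6% of the 238528 member reads, and the median member had 757. Per exonic kb, ZNF217 was highest at 46.7 CPM (reads per 1000000 after TMM scaling, mean of 4 libraries), followed by ZNF24 at 42.6, ZNF706 at 42.0 and ZNF207 at 41.9. ZNF800, ZNF3, ZNF281 and ZNF622, a factor in making the large ribosomal subunit, followed at 32.8 to 38.3. The median over members was 6.91, against 5.22 on chromosome 19 and 8.19 over tested protein-coding genes.

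**Figure D1:**
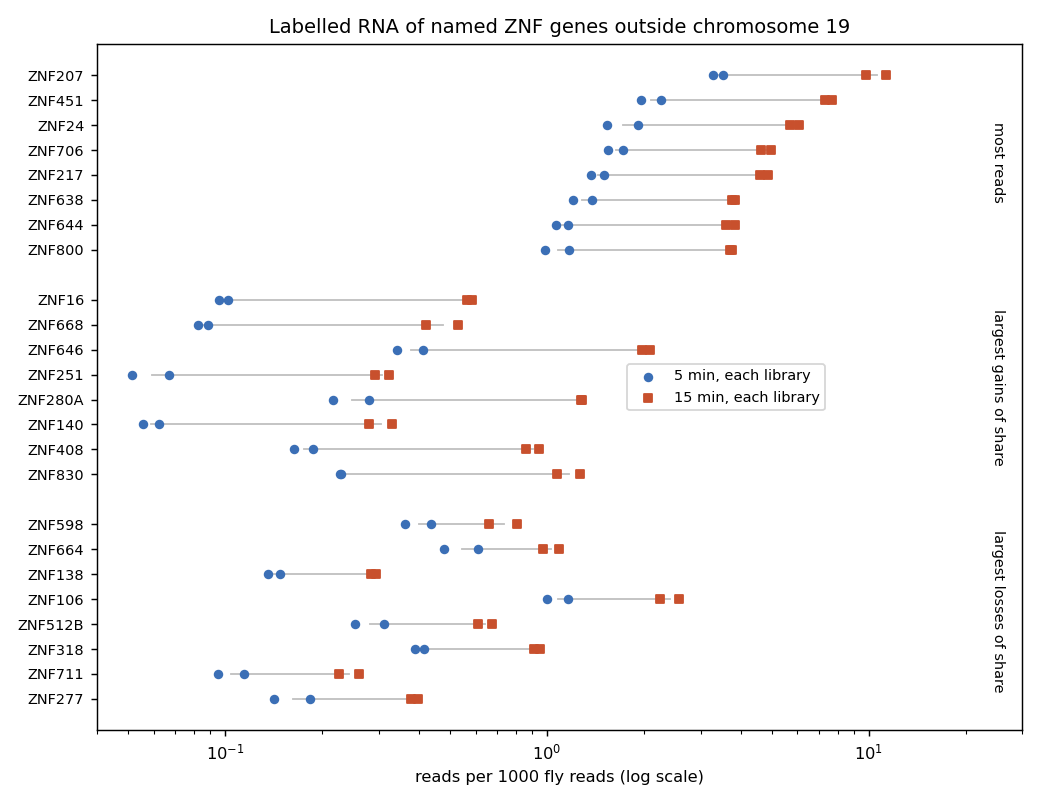
Reads per 1000 fly reads (log scale) of the 8 most read members and the 8 largest gains and losses of share, 1 point per library and a line between the means of each time. The 15 min libraries lie above the 5 min libraries in every gene shown, with the shortest lines among the losses.

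As a share of labelled human RNA, 70 members were higher at 15 min and 13 lower (edgeR quasi-likelihood test after TMM scaling, adjusted p under 0.05), while 117 did not pass. Over all tested genes 16.8% were higher and 21.3% lower. The median log2 change was 0.19 for members, 0.29 for chromosome 19 ZNF genes, -0.085 for protein-coding genes and 0.03 for all tested genes. Member changes ran from -0.77 to 0.88. On chromosome 19, 71 of 163 ZNF genes were higher and 2 lower. A change in share compares a gene with the rest of the labelled RNA: all 13 members lower in share still rose on the fly scale. With DESeq2 the calls were 32 higher and 8 lower among the 193 members given an adjusted p. Of all 12620 genes given one, 7.31% were higher and 18.8% lower. With library totals in place of TMM factors they were 110 higher and 8 lower, where 24.6% of all tested genes were higher and 16.1% lower.

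**Figure D2:**
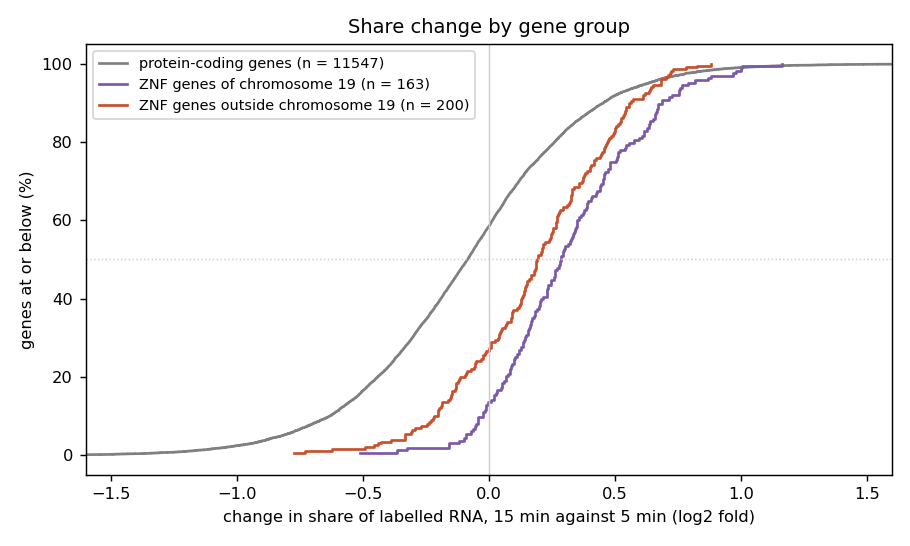
Cumulative percentage of genes (vertical axis) at or below each log2 share change from 5 to 15 min (horizontal axis) for members, chromosome 19 ZNF genes and tested protein-coding genes. The member curve lies between the other two through the middle of the range, with medians of 0.19, 0.29 and -0.085.

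ZNF16 had the largest gain, with 35.8 and 35.7 CPM at 15 min and 20.5 and 18.4 at 5 min, a log2 change of 0.88 ± 0.15 (SE, edgeR adjusted p = 1.75e-08). ZNF668 had 32.6 and 26.7 CPM at 15 min and 17.7 and 15.9 at 5 min (0.82 ± 0.16, edgeR adjusted p = 1.3e-06). Its neighbour ZNF646 had 128 and 125 CPM at 15 min and 73.3 and 74.1 at 5 min (0.78 ± 0.082, edgeR adjusted p = 4.46e-20). In all of them both 15 min libraries were above both 5 min libraries. ZNF646 (chr16:31074422-31084196) and ZNF668 (chr16:31060843-31074320) run in opposite directions from starts 102 bases apart in GENCODE. They share exon bases with genes of the other strand (1221 and 1438 bases), and no source used here gives the strand setting of the counting, which leaves their counts uncertain.

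ZNF280A (0.72), ZNF408 (0.71) and ZNF830 (0.70), a protein found in spliceosomes, also gained share under every alternative tried. ZNF251 (0.73) did not pass with DESeq2. ZNF140 (0.72) did not pass with DESeq2 or without the second 15 min library, where its change was 0.55 (edgeR adjusted p = 0.0703).

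ZNF598, an E3 ubiquitin ligase that marks collided ribosomes, had the largest loss, with 40.5 and 51.3 CPM at 15 min and 77.8 and 78.6 at 5 min (-0.77 ± 0.099, edgeR adjusted p = 1.26e-13). ZNF664 had 59.8 and 69.0 CPM at 15 min and 103 and 110 at 5 min (-0.73 ± 0.086, edgeR adjusted p = 8.15e-16). ZNF106, an RNA-binding protein, had 158 and 143 CPM at 15 min and 215 and 210 at 5 min (-0.49 ± 0.068, edgeR adjusted p = 5.4e-12). Both 15 min libraries were below both 5 min libraries in each. ZNF598 shares 504 exon bases with a gene of the other strand, and ZNF664 shares 420 with a gene of its own strand and 37 on the other, so their counts are uncertain too. On the fly scale these genes rose 1.84-, 1.89- and 2.23-fold. ZNF138 (-0.62), ZNF512B (-0.46) and ZNF318 (-0.44) kept their calls in every alternative. ZNF711 (-0.43), which is linked to intellectual disability, lost its call with DESeq2, with library totals, with no filter and when any 1 library was left out. ZNF277 (-0.39) lost it with DESeq2, with library totals and without either 15 min library or the second 5 min library.

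Shorter members gained more share. Of 28 members spanning under 10 kb, 15 were higher and 0 lower, with a median log2 change of 0.34. At an unadjusted p under 0.05 the edgeR counts were 15 and 0. With DESeq2 at an adjusted p under 0.05 they were 8 and 0. From 10 to 30 kb 37 of 87 were higher and 5 lower (median 0.29). From 30 to 100 kb the counts were 17 and 6 of 68 (0.12), and at 100 kb or more 1 and 2 of 17 (0.0017). Protein-coding genes in the same span ranges had medians of 0.067, -0.066, -0.13 and -0.16. In the same order, 23.6%, 16.3%, 9.82% and 5.67% of these protein-coding genes were higher, and 22.6%, 28.5%, 34.6% and 34.7% lower. Of all tested genes 16.8% were higher and 21.3% lower. At 100 kb or more 5.88% of members were higher, close to the protein-coding 5.67%, and 11.8% were lower. Across the 200 members, span and share change had a Spearman rho of -0.36 (Pearson r with log2 span -0.30), against -0.38 over 163 ZNF genes of chromosome 19 and -0.17 over 11547 protein-coding genes. Genes in these correlations come from the same 4 libraries and are not replicates.

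**Figure D3:**
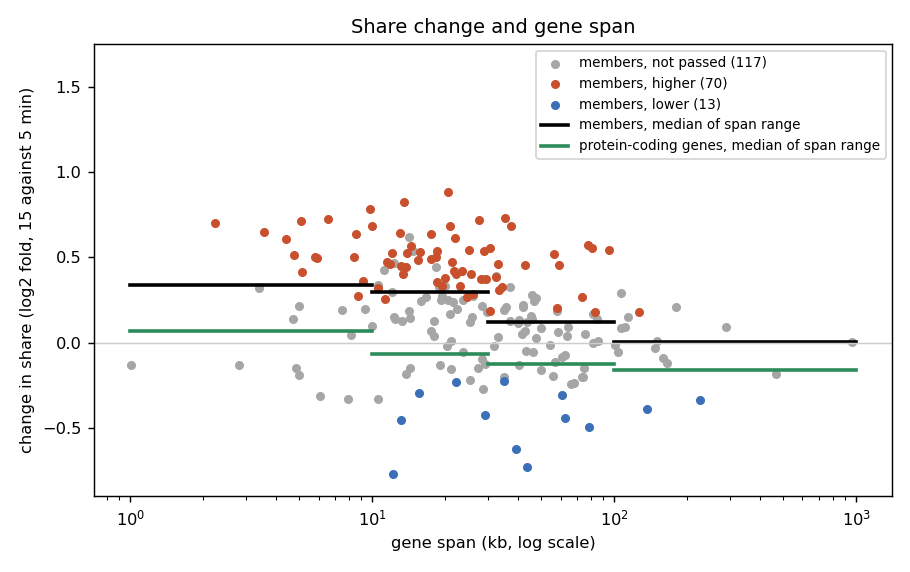
Log2 share change of each member against its gene span (kb, log scale), coloured by call, with black bars for member medians and green bars for protein-coding medians in 4 span ranges. Member medians fall from 0.34 below 10 kb to 0.0017 at 100 kb or more and lie above the green bars in each range.

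Proteins translated from the GENCODE coding transcripts held at least 1 C2H2 finger pattern in 196 of 200 members, with a median of 9 and a maximum of 35 in ZNF142. ZNF330, ZNF720, ZNF487 and ZNF839 had none. Of 35 members with 1 to 4 fingers, 6 were higher in share and 7 lower (median 0.071). With 5 to 9 fingers 28 of 72 were higher and 3 lower (0.21), with 10 to 14 fingers 25 of 61 and 2 (0.25), and with 15 or more 11 of 28 and 1 (0.23). In order of finger number 17.1%, 38.9%, 41.0% and 39.3% were higher, beside 35.0% of all members and 16.8% of all tested genes. Lower were 20.0%, 4.17%, 3.28% and 3.57%, beside 6.5% and 21.3%. Finger number and share change had a Spearman rho of 0.16 over the 200 members.

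KRAB-type letters, searched as D or E, then VM, any residue, E, and N, T or H, were in 65 members. Of these, 21 were higher in share and 1 lower (median 0.27), and of the 135 without the letters 49 were higher and 12 lower (0.19). The difference was not tested. Higher were 32.3% with and 36.3% without the letters, beside 35.0% of all members and 16.8% of all tested genes. Lower were 1.54% and 8.89%, beside 6.5% and 21.3%. In all, 4 versions of this search were run, some of them after share changes had been seen. They placed 59 to 74 members in the class, with medians of 0.27 in each. The version used misses ZNF10, whose KRAB domain is the one often fused to Cas9 for silencing, so a member without the letters may still have the domain. ZNF10 itself had 15.6 and 21.1 CPM at 15 min and 12.9 and 12.3 at 5 min (0.54 ± 0.19, edgeR adjusted p = 0.0122). Its call was lost with DESeq2 and without the second 15 min library or either 5 min library.

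Among 25 chromatin and promoter regulators past the read minimum, 10 were higher in share and 4 lower (median 0.13). Of all tested genes 16.8% were higher and 21.3% lower, and of all members 35.0% and 6.5%. ZNF281, a regulator of stem cell genes, had 183 and 192 CPM at 15 min and 136 and 145 at 5 min, so the times did not overlap (0.42 ± 0.07, edgeR adjusted p = 2.76e-08). ZNF609 was lower, with 135 and 138 against 167 and 177 CPM (-0.33 ± 0.07, edgeR adjusted p = 1.55e-05). The more abundant ZNF217 (0.067), ZNF644 (0.087) and ZNF292 (0.092) did not pass. ZNF131 (0.18, edgeR adjusted p = 0.0237) lost its call with DESeq2, with no filter and without either 15 min library or the first 5 min library.

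Of 13 members with roles in RNA, ribosomes, SUMO or the spindle, 1 was higher and 4 lower, with a median of -0.13. Of tested protein-coding genes 30.5% were lower. The higher one, ZNF451 (0.18, edgeR adjusted p = 0.01), lost its call with DESeq2 and when any 1 library was left out. ZNF598, ZNF106, ZNF277 and ZNF385A were lower, the last losing its call with DESeq2, with library totals and without the second library of either time. ZNF207 (-0.022), ZNF706 (-0.096), ZNF638 (-0.091), ZNF622 (0.14) and ZNF326 (-0.13), a subunit of a complex that joins RNA polymerase II to mRNP particles, did not pass.

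Of 15 SCAN domain members, 10 were higher and 0 lower, with a median of 0.44. At an unadjusted p under 0.05 edgeR gave 13 higher and 0 lower. DESeq2 at an adjusted p under 0.05 gave 5 and 0. At the adjusted threshold of edgeR 16.8% of all tested genes and 35.0% of all members were higher. The SCAN members had a median span of 18.4 kb, and 42.5% of members spanning 10 to 30 kb were higher. The part of span in the SCAN count was not tested. ZNF496 had 192 and 205 CPM at 15 min and 155 and 161 at 5 min (0.33 ± 0.068, edgeR adjusted p = 1.16e-05). ZNF394 had 97.0 and 102 CPM at 15 min and 72.3 and 74.1 at 5 min (0.44 ± 0.085, edgeR adjusted p = 1.96e-06). Both had 15 min libraries above the 5 min ones. ZNF397 (0.28) was higher too, but not with DESeq2 or without the second 15 min or the first 5 min library. ZNF24 (0.13), ZNF445, which protects imprints (0.14), and ZNF197 (0.039) did not pass. These lists were drawn from textbook roles with results of these data known.

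The machinery that KRAB proteins recruit was mostly lower in share. Of 33 tested genes 0 were higher and 20 lower, with a median of -0.29, where 30.5% of tested protein-coding genes and 21.3% of all tested genes were lower. At an unadjusted p under 0.05 edgeR gave 0 and 21, and DESeq2 at an adjusted p under 0.05 gave 0 and 16. TRIM28, the KRAB-binding scaffold, had 212 and 238 CPM at 15 min and 398 and 431 at 5 min (-0.88 ± 0.062). CHD4, the NuRD remodeller, had 299 and 312 against 498 and 523 CPM (-0.74 ± 0.061). Both times were separate in each. CBX5, an HP1 protein (-1.22), SUMO2 (-0.81) and CHD3 (-0.56) also fell in share. SETDB1 had 73.1 and 77.8 CPM at 15 min and 77.8 and 77.9 at 5 min (-0.047, edgeR adjusted p = 0.719) and did not pass.

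Members lay in 12 clusters of 3 or more genes with at most 250 kb between neighbouring starts. The 64 members in clusters had 27 higher and 2 lower (median 0.25), and the 136 outside them 43 and 11 (0.16). Higher were 42.2% in and 31.6% outside clusters, beside 35.0% of all members and 16.8% of all tested genes. Lower were 3.13% and 8.09%, beside 6.5% and 21.3%. On chromosome 8, ZNF251, ZNF34, ZNF517, ZNF7, ZNF250 and ZNF16 had a median of 0.54. In all 6 both 15 min libraries were above both 5 min libraries in CPM, as in 57.5% of members and 34.6% of tested genes with annotation, and 4 passed as higher. The call of ZNF250 was lost with DESeq2 and without the first 15 min library or either 5 min library. On chromosome 7, ZNF736, ZNF680, ZNF107, ZNF138, ZNF273 and ZNF117 had a median of -0.13. At an unadjusted p under 0.05 edgeR gave 0 higher and 3 lower, and DESeq2 at an adjusted p under 0.05 gave 0 and 1. In the main fit 0 were higher and 2 lower. The lower ones were ZNF138 and ZNF273 (-0.31), and ZNF273 lost its call with DESeq2, with library totals and without the first 5 min library. On chromosome 16 the cluster from ZNF205 to ZNF174 had 4 of 6 higher, among them ZNF263 (0.68) and ZNF213 (0.64). Clusters were singled out after their values were seen.

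ZNF7 was the most abundant gene of the chromosome 8 cluster, with 142 and 146 CPM at 15 min and 112 and 109 at 5 min (0.38 ± 0.075, edgeR adjusted p = 3.97e-06). In the chromosome 7 cluster ZNF138 had 18.1 and 18.1 CPM at 15 min and 29.1 and 26.6 at 5 min (-0.62 ± 0.16, edgeR adjusted p = 0.000342), while its neighbour ZNF107 had 81.2 and 81.3 CPM at 15 min and 73.1 and 72.5 at 5 min (0.16 ± 0.089, edgeR adjusted p = 0.151) and did not pass. Adjacent genes of that cluster thus lay on either side of 0. In the chromosome 16 cluster ZNF263 had 76.5 and 87.5 CPM at 15 min and 50.6 and 51.3 at 5 min (0.68 ± 0.096, edgeR adjusted p = 1.92e-11). ZNF213 had 29.3 and 28.3 CPM at 15 min and 17.0 and 19.9 at 5 min (0.64 ± 0.15, edgeR adjusted p = 0.000188). Both genes had 15 min libraries above the 5 min ones and kept their calls in every alternative. Of the other chromosome 7 clusters, that from ZNF789 to ZNF655 had 2 of 3 higher (median 0.44). The cluster from ZNF786 to ZNF746 had 3 of 7 higher. There ZNF746, a repressor also called PARIS, had 166 and 169 CPM at 15 min and 117 and 112 at 5 min (0.55 ± 0.073, edgeR adjusted p = 1.39e-12). The call of ZNF282 in that cluster (0.19) was lost with DESeq2, with RLE factors, with library sizes from before the filter, with no filter and when any 1 library was left out. That of ZNF75A in the chromosome 16 cluster (0.40) was lost with DESeq2 and without either 15 min library or the second 5 min library.

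A coding neighbour on the other strand with a start within 1000 bp was annotated for 29 members. Some of these pairs are divergent. In others, with a negative start distance, the genes overlap at their starts. In 26 comparisons of a member with such a neighbour, counting pairs of members from both sides, the share changes had the same sign in 19. ZNF106 (-0.49) and SNAP23 (-0.45), a membrane fusion protein whose start lies 92 bases away, were both lower. ZNF740 (0.56) was higher while CSAD, a taurine synthesis enzyme, had -0.28 and did not pass. The start distance of that pair is -209 bp, so the genes overlap. ZNF10 (0.54) and ZNF891 (-0.056), divergent from starts 102 bases apart, also differed in sign, and ZNF891 did not pass. These pairs were chosen after their values were seen.

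**Figure D4:**
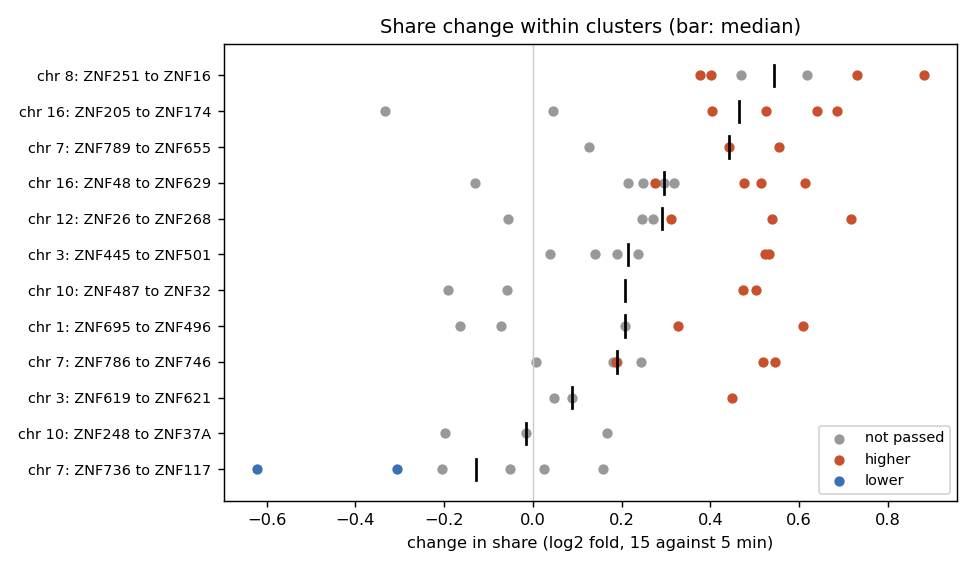
Log2 share change of each member (points, coloured by call) in the 12 clusters, 1 row per cluster with a bar at its median. The chromosome 8 cluster is highest with a median of 0.54, and the chromosome 7 cluster from ZNF736 to ZNF117 lowest at -0.13.

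The authors' deposited table of synthesis rates listed 168 of the 200 members, with a median of 0.0123 in the authors' unit, which no source used here names. The highest were ZNF24 (0.0905), ZNF281 (0.0742), ZNF207 (0.0718), ZNF706 (0.0675) and ZNF770 (0.0673) in the authors' deposited table. The lowest there were ZNF341 (0.0016), ZNF395 (0.000484), ZNF343 (0.000285), ZNF10 (0.00012) and ZNF19 (1.81e-05). The table names untreated cells but no library. As a description, Spearman rho with CPM per exonic kb was 0.86 over the 168 members and 0.90 over 9774 protein-coding genes. Divided by CPM per exonic kb, the rate was lowest in ZNF19 (1.83e-05), ZNF10 (4.29e-05), ZNF343 (8.12e-05), ZNF689 (0.000195), ZNF395 (0.00023) and ZNF512B (0.000276), against a member median of 0.0018. ZNF395, ZNF343, ZNF10 and ZNF19 share exon bases with another gene on their own strand (2032, 567, 533 and 777 bases), as do 29 of the 168 members with a rate. ZNF689 shares none on either strand, and ZNF512B shares 284 bases on the other strand only. The part of shared exons in these rates was not tested. Rate and share change had a Spearman rho of -0.048 over the 168 members.

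**Figure D5:**
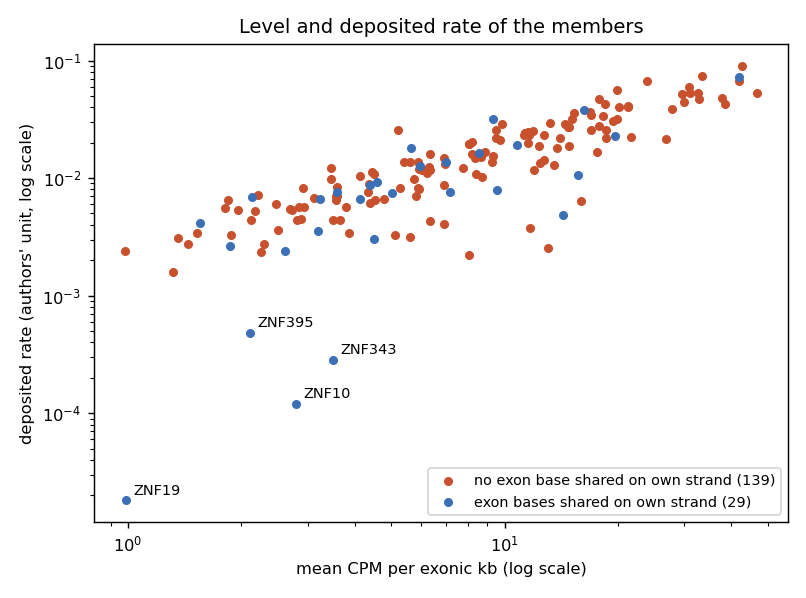
Deposited rate (authors' unit, log scale) against mean CPM per exonic kb (log scale) for the 168 members with a rate, coloured by whether exon bases are shared with another gene of the same strand. The 4 members named in the plot, ZNF395, ZNF343, ZNF10 and ZNF19, have the lowest rates, from 0.000484 down to 1.81e-05.

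Exon bases are shared with another annotated gene in 99 members, 44 on the same strand and 69 on the other. Of the 101 members free of such sharing 36 were higher in share and 7 lower (median 0.19), and of the 99 others 34 and 6 (0.21). Of all members 35.0% were higher and 6.5% lower, and of all tested genes 16.8% and 21.3%.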

How the data were processed

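Raw read counts per gene for human and fly genes were deposited for all 4 libraries, and per the submitters' processing notes they came from STAR 2.7 and featureCounts (Subread 2.0.1) on hg38 and dm6. The synthesis rates are a score per gene in the authors' deposited table, used as deposited. Genes were annotated with GENCODE 29 (GRCh38), which held 56590 of 60279 human IDs. edgeR 4.0.16 (R 4.3.3) quasi-likelihood fits compared 15 with 5 min after a minimum count of 10 (filterByExpr). One fit used fly totals as library sizes, the other TMM factors on sizes recomputed after the filter, each with Benjamini-Hochberg adjustment over 17322 genes. Standard errors are the log2 change over the root of the F statistic. Scripts were tested on simulated data. With 4339981 to 5051370 human reads a library, low members carry wide errors.

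The members and lists were chosen with earlier results of these data known. Named members are the 8 highest by CPM and per exonic kb, the 8 largest gains and losses with libraries separated, the 5 highest and lowest rates, the 3 on either side of the read minimum and the most read of each role list. Further names, in clusters and promoters, were chosen after their values were seen. No library was a copy of another: over members, chi-square divided by its degrees of freedom was 1.25 at 15 min and 1.29 at 5 min. Alternatives were DESeq2 1.42.0, other scalings, no filter, a replicate block and each library left out.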

Additional observations from a re-analysis of the deposited data

How the results depend on the processing

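All 200 members rose under every alternative for accumulation, and with read minimums of 50 and 200 all 210 and 177 did. Share calls, 83 in the main fit, fell to 40 with DESeq2 (32 higher, 8 lower), beside 7.31% and 18.8% of all 12620 genes given an adjusted p. With library totals 110 were higher and 8 lower, beside 24.6% and 16.1% of all tested genes. That scaling moved the median of all genes from 0.029 to 0.13, and the member median less that of all genes was 0.16 under both. Without members that share exon bases (the reading taken here of overlap with another gene) 43 calls remained among the 101, 36 higher and 7 lower, since fewer genes were counted. The 15 over 5 min ratio of the members' share was 1.23 without mitochondrial reads (main 1.18), and that of member to chromosome 19 reads 0.901 without exon-sharing genes (main 0.917). Leaving out 1 library gave 58 to 63 share calls, 48 to 53 higher and 10 to 14 lower. It gave ratios of 3.19 to 3.76 for the summed reads, 1.17 to 1.20 for the share and 0.907 to 0.927 for member to chromosome 19 reads. Of the calls, 29 of 70 higher and 8 of 13 lower passed in every alternative.

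Deviations from the group means correlated at 0.048 for the same replicate number and -0.048 for the other. With 2 libraries per time the second value is the negative of the first by construction. Whether replicate numbers pair the libraries can therefore not be decided from these values. With the replicate block 95 members changed share, 79 higher and 16 lower, where 17.8% of all tested genes were higher and 22.4% lower.

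An alternative added after seeing the data kept library sizes from before the filter and gave 80 calls, 66 higher and 14 lower. It was the version run first, and the main fit was adopted after both counts were known, to follow earlier processing of these data. The searches for KRAB letters other than the one used were likewise added later: the longest coding sequence alone gave 59 members, and 2 wider patterns gave 69 and 74, of which the last alone includes ZNF10.

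Some named members without a call changed sign. With library totals these were ZNF207 (0.082), ZNF706 (0.0087), ZNF638 (0.014), ZNF341 (0.018) and ZNF19 (0.092). When 1 library was left out they were ZNF207 (-0.11 to 0.031, above 0 without the second 15 min or first 5 min library), ZNF395 (-0.28 to 0.015) and ZNF19 (-0.13 to 0.070), both above 0 without the first library of either time, ZNF217 (-0.0036 without the second 5 min library, to 0.098), and ZNF292 (-0.043 to 0.20) and ZNF197 (-0.023 to 0.062), both below 0 without the first 5 min library. The cause was not tested. Low reads limit small members: ZNF205, with 18 to 34 reads per library, had a standard error of 0.31 on the log2 scale.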
